A study of Mus musculus with 24 samples.

Results

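The Schlafen genes Slfn1, Slfn2, Slfn3 and Slfn4, neighbours on mouse chromosome 11, were measured in ovaries of a high-fertility mouse line and its control line. They are 4 of 13319 genes named in the annotation of the array and were covered by 5 of the 22690 probe sets of the array, which were all the probe sets whose annotation named 1 of the 4 genes. Slfn1, Slfn2, Slfn3 and Slfn4 each had 1 probe set of their own, and 1 further probe set was annotated to both Slfn3 and Slfn4, so that its signal cannot be assigned to either gene. The 4 genes were selected on their signal difference between the lines in these same arrays, and their line differences are therefore given as a description, without a test.

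Line FL1 had been selected to generation 130 for an index of litter size and litter weight at birth, whereas DUKsi is a non-selected control line propagated by mating full siblings over some 36 generations. Ovaries of 30 virgin females per line, aged 6 to 9 weeks, were collected at metestrus, the stage of the cycle that follows ovulation, and combined to 6 pools per line. Each pool was hybridised to 2 arrays (MOE 430A), which were averaged, giving 6 FL1 and 6 DUKsi values per probe set. The females carried no transgene and received no treatment. Each line was a single closed breeding population, so that genes fixed by selection and genes fixed by drift or inbreeding cannot be told apart. The sources differ on the pool size, with 6 animals in the labels and 5 in the methods.

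Schlafen proteins take their name from the German word for sleeping, since the first member described, Slfn1, arrests the growth of T cells. The mouse genes are commonly divided by the length of their proteins into a short class with Slfn1 and Slfn2, an intermediate class with Slfn3 and Slfn4, and a long class with Slfn5, Slfn8, Slfn9 and Slfn14, whose proteins carry an additional helicase-like part. Several of them are known as genes that respond to type I interferon or to bacterial products in macrophages and lymphocytes. Slfn2 is required for the quiescence and survival of resting T cells, and Slfn4 is a gene of macrophages and other myeloid cells.

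Slfn4 and Slfn3, which lie next to each other, had lower signals in FL1 than in DUKsi, and the pools of the lines did not overlap. Slfn4 was 2.41-fold lower at signals well above the low end of the array. Slfn3 was 5.78-fold lower by the ratio of means, but its FL1 signals lay near zero. Slfn2 and Slfn1, on the other side of Slfn4, overlapped between the lines. Of the 5 probe sets, 2 lay lower in every FL1 pool than in any DUKsi pool, where 2.39% of all 22626 probe sets tested did so. None lay higher in every FL1 pool, where 2.24% of all probe sets did, and 4.62% of all probe sets were without overlap in 1 direction or the other. Nothing can be read from these counts, since the genes were chosen by this difference.

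The 4 genes are transcribed from the same strand and stand, by the RefSeq annotation of build GRCm38.p6, in the order Slfn2 (chr11:83065112-83070678), Slfn1 (chr11:83116820-83122670), Slfn4 (chr11:83175172-83190216) and Slfn3 (chr11:83191330-83215154). They occupy 150043 bases from the start of Slfn2 to the end of Slfn3. Slfn2 and Slfn1 are 46.1 kb apart and Slfn1 and Slfn4 52.5 kb, whereas only 1113 bases separate Slfn4 from Slfn3. The long-class genes Slfn5, Slfn9 and Slfn8 lie before Slfn2, and Slfn14 lies behind Slfn3. Of these long-class genes only Slfn8 had a probe set on the array.

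The stretch of 250 bases immediately before the transcription start in the RefSeq promoter table is shown for each gene. The 4 genes share letters there, which begin between 42 and 74 bases before the start. The windows are chr11:83064862-83065111 for Slfn2, chr11:83116570-83116819 for Slfn1, chr11:83174936-83175185 for Slfn4 and chr11:83191080-83191329 for Slfn3, all on the plus strand of GRCm38.p6. The start of Slfn4 in the promoter table lies 14 bases behind the start given for the gene above, so that the window of Slfn4 reaches 14 bases into that gene span and its distances are counted from the later start. Capitals mark the letters AGGAAGT or their reverse complement ACTTCCT, a core sequence bound by transcription factors of the ETS family, among them PU.1 of macrophages and B cells.
Slfn2: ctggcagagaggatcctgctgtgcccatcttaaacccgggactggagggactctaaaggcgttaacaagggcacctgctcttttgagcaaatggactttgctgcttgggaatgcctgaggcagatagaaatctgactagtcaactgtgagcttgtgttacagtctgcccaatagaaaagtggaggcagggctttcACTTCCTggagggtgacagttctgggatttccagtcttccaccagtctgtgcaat
Slfn1: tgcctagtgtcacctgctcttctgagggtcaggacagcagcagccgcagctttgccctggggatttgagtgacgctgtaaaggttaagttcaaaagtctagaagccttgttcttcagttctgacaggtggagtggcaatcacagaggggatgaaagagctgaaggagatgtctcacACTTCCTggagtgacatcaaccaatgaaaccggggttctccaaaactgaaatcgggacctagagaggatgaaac
Slfn4: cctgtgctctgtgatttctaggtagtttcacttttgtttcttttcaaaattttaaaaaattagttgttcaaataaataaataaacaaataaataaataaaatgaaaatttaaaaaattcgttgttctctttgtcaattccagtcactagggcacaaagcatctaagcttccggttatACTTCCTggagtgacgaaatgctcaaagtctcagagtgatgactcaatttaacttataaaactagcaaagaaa
Slfn3: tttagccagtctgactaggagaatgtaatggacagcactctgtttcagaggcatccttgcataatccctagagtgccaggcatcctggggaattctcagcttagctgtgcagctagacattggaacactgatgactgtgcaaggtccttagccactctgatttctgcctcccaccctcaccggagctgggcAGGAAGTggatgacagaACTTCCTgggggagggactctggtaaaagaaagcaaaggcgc

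AGGAAGT, on either strand, was present in 4 of 4 windows, and in 7.69% of all 32851 windows of the same length in the promoter table. Its first base lay 55 bases before the start in Slfn2, 74 in Slfn1, 73 in Slfn4 and 42 in Slfn3, where a second copy on the opposite strand began 59 bases before the start. The longer run CCAGGAAGT, which contains AGGAAGT and was chosen after the sequences had been seen, was also in 4 of 4 windows and in 0.7% of all windows. The longest run shared by the 4 windows was ACTTCCTGG, and Slfn1 and Slfn4 shared ACTTCCTGGAGTGAC. The windows belong to neighbouring genes of 1 family and are not independent of each other. The presence in 4 of 4 therefore cannot be read as an enrichment over the share of all windows. AGGAAGT is common to genes that differed between the lines and to genes that did not.

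The core of the interferon-stimulated response element (GAAA, any 2 bases, and GAAA again) was searched on both strands and found in 0 of 4 windows, against 2.98% of all windows. It was found in 4 of 5 windows of the other Schlafen genes, namely those of Slfn5, Slfn9 and Slfn8 but not of Slfn14, whereas AGGAAGT was in 0 of these 5. The 5 windows belong to 4 genes, since Slfn8 is counted with more than 1 window, and are not independent of each other. The stretch that holds the core in a window of Slfn8 (chr11:83020834-83020873, GRCm38.p6, minus strand) is shown for comparison, with the matching letters in capitals.
Slfn8: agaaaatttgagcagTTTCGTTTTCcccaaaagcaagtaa

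TTCNNNGAA, a core bound by STAT factors, was in 0 of 4 windows of Slfn1 to Slfn4 and in 7.02% of all windows. TATAAA was in 1 of 4, that of Slfn4 at 19 bases before the start, and in 12.4% of all windows. A match describes these letters only, and the absence of a match refers only to this window.

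Slfn4 gave signals of 157 in the lowest FL1 pool, 193 at the median and 215 in the highest, and of 404, 439 and 535 in DUKsi. Every FL1 pool was thus below every DUKsi pool. The means were 189 ± 21.0 in FL1 and 456 ± 51 in DUKsi (mean ± SD of 6 pools each), a log2 difference of -1.27 (SE 0.107, 95% interval -1.50 to -1.04). The 12 FL1 arrays lay between 132 and 244 and the 12 DUKsi arrays between 382 and 549, so that single arrays did not overlap either. The spread between pools was 11.1% of the mean in FL1 and 11.2% in DUKsi. None of the Slfn4 arrays was under 48.4, the value below which the lowest 20% of all signals of the series lay.

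Slfn3 gave signals of 3.4 in the lowest FL1 pool, 9.68 at the median and 15.1 in the highest, and of 42, 49.7 and 69.0 in DUKsi. The pools did not overlap. The means were 9.41 ± 4.43 in FL1 and 54.3 ± 11.6 in DUKsi (SD, n = 6), a log2 difference of -2.67 (SE 0.350, 95% interval -3.42 to -1.93). All 12 FL1 arrays and 5 of the 12 DUKsi arrays were under 48.4. The 2 arrays of a single pool differed by up to 34.2-fold, so the size of the fold is poorly determined although its direction was the same in all pools. With a constant of 48.4 added to each signal, the log2 difference of Slfn3 was -0.83, and from the second array of each pool alone it was -4.38.

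The probe set shared by Slfn3 and Slfn4 gave signals of 7.3, 19.5 and 36.7 in FL1 and of 28.2, 48.1 and 81.1 in DUKsi (lowest, median and highest pool). FL1 was lower on average, but the lines overlapped, since FL1 was higher in 2 of the 36 possible pairings of pools from both lines. The means were 21 ± 13.3 and 51.4 ± 17.7 (SD, n = 6), a log2 difference of -1.51 (SE 0.424, 95% interval -2.41 to -0.61). Its signals were 10 times under 48.4 among the FL1 arrays and 5 times among the DUKsi arrays. With the constant of 48.4 added its log2 difference was -0.53.

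Slfn2, the short-class gene of lymphocyte quiescence, gave signals of 179, 218 and 244 in FL1 and of 182, 216 and 225 in DUKsi. The ranges lay almost on top of each other, and FL1 was higher in 22 of the 36 pairs. The means were 216 ± 23.0 and 209 ± 15.7 (SD, n = 6), a log2 difference of 0.04 (SE 0.109, 95% interval -0.19 to 0.28). A difference of up to 0.28 on the log2 scale is within the interval. None of its arrays was under 48.4.

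Slfn1, the founding member, gave signals of 16, 43.3 and 59.6 in FL1 and of 20.7, 28.6 and 43.4 in DUKsi. The DUKsi range lay within that of FL1. The means were 39.8 ± 19.0 and 30.9 ± 9.93 (SD, n = 6), a log2 difference of 0.26 (SE 0.356, 95% interval -0.50 to 1.02). Of the arrays, 7 in FL1 and 10 in DUKsi were under 48.4. The sign of the Slfn1 difference depended on the array, with -0.05 from the first array of each pool and 0.98 from the second.

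**Figure D1:**
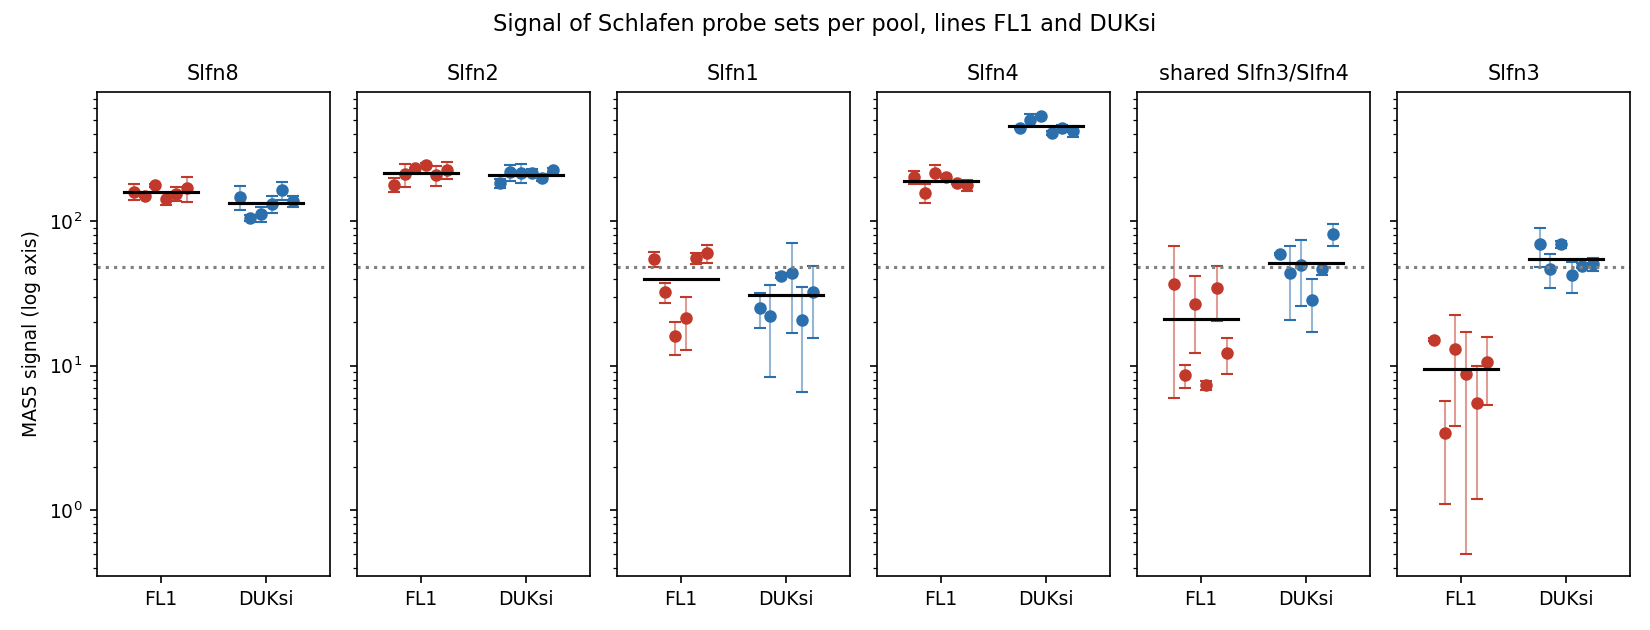
MAS5 signal of each pool (points, log axis) in lines FL1 and DUKsi for the Schlafen probe sets, with the signal of 48.4 as a dotted line. Slfn4 and Slfn3 lie lower in all 6 FL1 pools than in any DUKsi pool, while Slfn2, Slfn1 and Slfn8 overlap between the lines.

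FL1 pool 3 and DUKsi pool 4 stood apart from the other pools in other measures. FL1 pool 3 had the lowest mean correlation with the pools of its line, 0.947 where the range over all pools ended at 0.974, and a beta-actin 3' to 5' signal ratio of 2.45. DUKsi pool 4 had high signals of the neutrophil granule genes Lcn2, at 2455, and Ltf, at 1838. No other neutrophil marker had an SD over the DUKsi pools above its mean. For Slfn4, FL1 pool 3 was the highest FL1 pool and DUKsi pool 4 the lowest DUKsi pool, at 215 and 404. Without both pools the log2 difference was -1.34 for Slfn4, -2.87 for Slfn3, -1.79 for the shared probe set and 0.03 for Slfn2, and the lines then no longer overlapped for the shared probe set.

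The 3' to 5' ratio, a measure of how complete the labelled RNA is, differed between the lines. For beta-actin FL1 pools averaged 1.67 ± 0.423 and DUKsi pools 1.27 ± 0.0522 (SD, n = 6), and the 2-sided exact permutation p was 0.00216, which no comparison of 6 with 6 pools can undercut. For Gapdh it was 1.53 ± 0.42 and 1.28 ± 0.146 (exact permutation p = 0.203, n = 6). The median signal averaged 221 ± 7.97 over the FL1 pools and 235 ± 4.99 over the DUKsi pools (exact permutation p = 0.0108, n = 6). The part of RNA quality in the Slfn4 and Slfn3 differences was not tested. When every pool was set to the same median, the Slfn4 difference was -1.18 and that of Slfn3 -2.58.

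**Figure D2:**
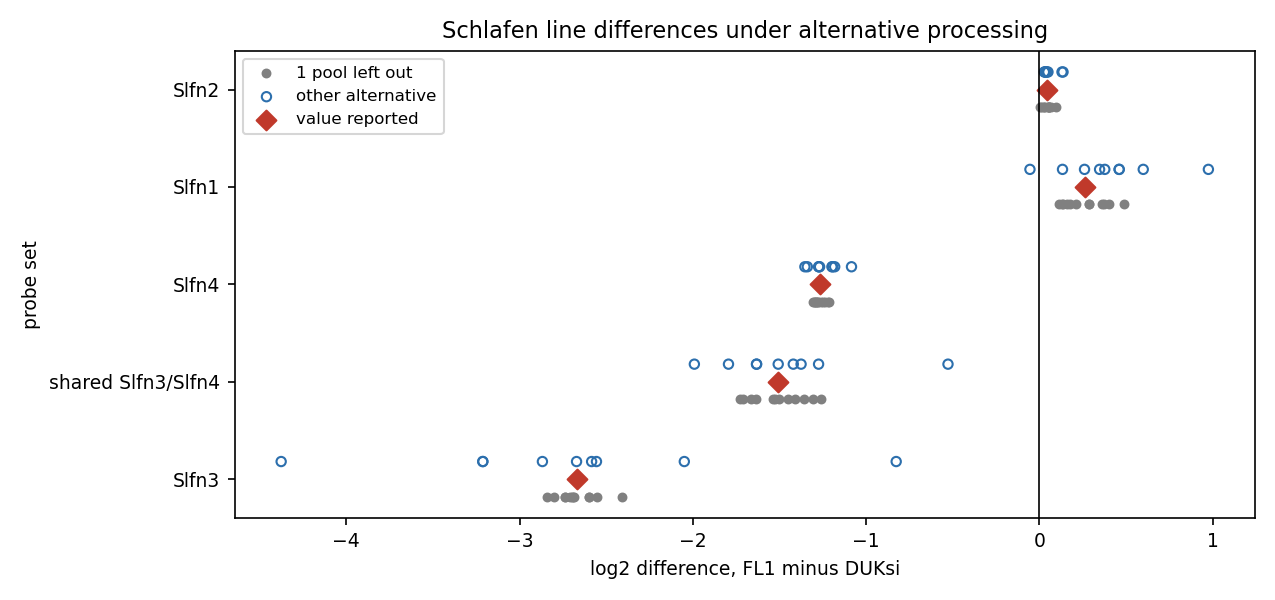
Log2 difference of FL1 and DUKsi for the 5 probe sets as reported (red diamonds), with 1 pool left out (grey) and under the other alternatives (open blue circles). Slfn4 stays between -1.35 and -1.08, whereas Slfn3 extends from -4.38 to -0.83 and Slfn1 crosses zero.

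The members were compared with each other over the 12 pools after the mean of each line had been taken off. Over the 10 pairs of probe sets Pearson's r ran from -0.467 to 0.682. The highest value was that of Slfn3 and Slfn4, at r = 0.682 and Spearman's rho = 0.538, and r was 0.486 without the 2 pools farthest from the median. These values describe 12 pools whose probe sets share the same arrays, and Slfn3 lay near the low end of the signal range.

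The genes whose pattern over the 12 pools was most like that of a member were sought among 16831 probe sets with adequate signals. For Slfn4 they were Rnf141 (r = 0.890, rho = 0.951), Fbxo21 (r = 0.878, rho = 0.867) and Smc4, a condensin subunit (r = 0.873, rho = 0.895). For Slfn2 they were Atp6v1d, a subunit of the vacuolar proton pump (r = 0.922, rho = 0.923), Atf7ip (r = 0.888, rho = 0.846) and Ptgdr, a prostaglandin receptor (r = 0.865, rho = 0.902). Without the 2 pools farthest from the median, r was 0.811 for Rnf141 and 0.832 for Atp6v1d. Such values were the highest among many candidates.

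For genes outside the selected members, differences were tested with limma on log2 pool means, with Benjamini-Hochberg adjustment over all probe sets, and a gene was called at an adjusted p below 0.01 and a change of at least 1.5-fold. By this rule 1.24% of all probe sets were called higher and 1.07% lower in FL1, together 2.32%. The higher calls made up 53.6% of these calls, and 67.2% when every pool was set to the same median. The p-values measure the spread between pools, not between animals.

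Slfn8, the only other Schlafen gene measured, was not called. Its signals were 158 ± 12.8 in FL1 and 132 ± 21.9 in DUKsi (SD, n = 6), a log2 difference of 0.27 (SE 0.139, limma adjusted p = 0.3), with FL1 higher in 31 of the 36 pairs. The interval of the difference reached from -0.03 to 0.56, which does not include a change of the size seen in Slfn4.

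The 10 nearest measured genes on each side of the whole Schlafen run, from Slfn5 to Slfn14, were examined to see how far along the chromosome a lower signal in FL1 extended. Of these 20 genes, 0 were called in either direction by limma, where 2.32% of all probe sets were. Their median log2 difference was -0.05, close to the -0.07 of all probe sets. Ap2b1, a subunit of the clathrin adaptor that begins 83.6 kb behind Slfn3 and 12 kb behind the end of the run, had a log2 difference of -0.13 (limma adjusted p = 0.401). On the other side Nle1, at 42.9 kb before the run and 156.7 kb before Slfn2, had -0.06 (limma adjusted p = 0.921), and the DNA repair gene Rad51d had -0.16 (limma adjusted p = 0.391), followed by Rffl with -0.07 (limma adjusted p = 0.855). The neighbour with the lowest value was the eosinophil chemokine gene Ccl11, at -1.27 (limma adjusted p = 0.105), and that with the highest was Ccl12, at 1.16 (limma adjusted p = 0.0708).

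Among the chemokine genes behind Slfn3, Ccl5, which attracts T cells and is known as an interferon-responsive gene, had a log2 difference of 0.66 (limma adjusted p = 0.0829). It was the only neighbour called when FL1 pool 1 was left out, at 0.84 (limma adjusted p = 0.00848). Ccl9 had a log2 difference of 0.18 (limma adjusted p = 0.45). Ccl8, a monocyte chemokine gene among those before Slfn2, had a log2 difference of 0.71 (limma adjusted p = 0.0481) and was called at an adjusted p below 0.05. Between Slfn2 and Slfn3 no gene other than the members was measured. The lower signals were seen in Slfn4 and Slfn3, and the measured genes on either side of them, Slfn1 and Ap2b1, had log2 differences of 0.26, with a sign that depended on the array, and of -0.13.

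**Figure D3:**
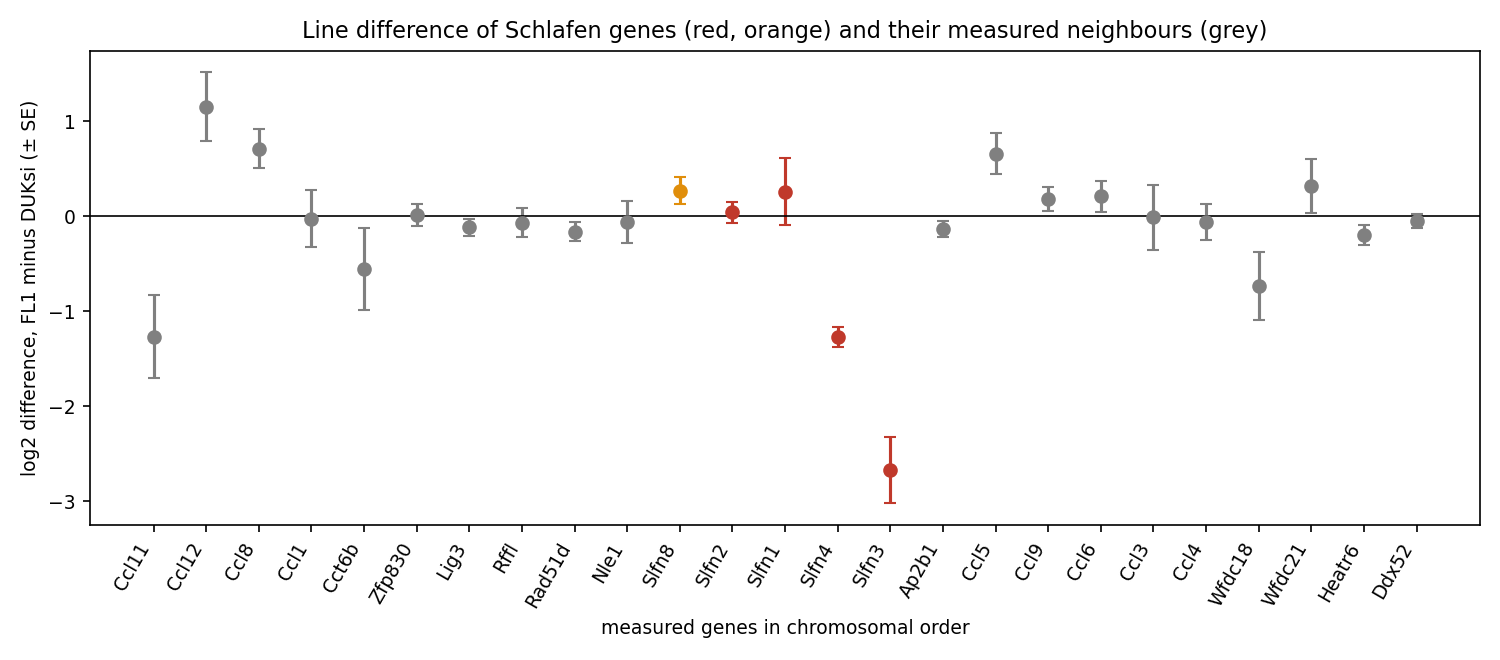
Log2 difference of FL1 minus DUKsi (points, bars ± SE) for the Schlafen genes and their 20 measured neighbours in chromosomal order. Slfn4 at -1.27 and Slfn3 at -2.67 lie below zero, and 0 of the 20 neighbours were called.

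Several Schlafen genes respond to interferon, so the genes known to be induced by interferon were examined as a list. Of 43 listed genes 38 were measured, and 28 of these had a log2 difference above zero, with a median of 0.27. Across the array 8665 of 22626 probe sets were above zero, with a median of -0.07. By limma 6 of the listed genes were called higher and 0 lower in FL1, where 1.24% and 1.07% of all probe sets were. The list was written with earlier results of these data known, so the count is a description. The direction of the 6 called genes was opposite to that of Slfn4 and Slfn3. By the test on linear signals named in the methods, 2 of the 6 were called.

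Cxcl10, a chemokine that attracts activated T cells, had signals of 216 ± 116 in FL1 and 59.8 ± 23.0 in DUKsi, a log2 difference of 1.82 (SE 0.297, limma adjusted p = 0.00104), which missed the threshold by the methods' test on linear signals at an adjusted p of 0.0994. Ifi35 had a log2 difference of 1.68 (limma adjusted p = 0.00318), and an adjusted p of 0.0161 by the methods' test. Genes of antigen processing were also called higher by limma. Unlike Cxcl10 and Ifi35, Tap1 and Psmb9 stayed called by the methods' test (adjusted p = 0.00175 and 0.00729). Tap1, a subunit of the peptide transporter, had signals of 359 ± 58.2 and 162 ± 20.7, a log2 difference of 1.15 (limma adjusted p = 3.54e-05). The immunoproteasome subunits Psmb9 and Psmb8 had log2 differences of 0.97 (limma adjusted p = 0.00025) and 0.72 (limma adjusted p = 0.00326). The guanylate-binding protein gene Gbp2 had 0.97 (limma adjusted p = 0.000629).

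Of the genes that carry interferon and Toll-like receptor signals 16 of 18 were measured, and 0 were called, with a median log2 difference of 0.04. Across the array 2.32% of all probe sets were called. The kinase gene Jak1 had -0.13 (limma adjusted p = 0.488) and the NF-kappaB subunit gene Rela had 0.07 (limma adjusted p = 0.74). Of 10 genes of lymphocyte quiescence, the state with which Slfn2 is associated, 0 were called at a median of -0.10. Foxo1, which holds resting T cells in quiescence and also acts in granulosa cells, had a log2 difference of -0.42 (limma adjusted p = 0.000882), a change under 1.5-fold. Btg1 had -0.02 (limma adjusted p = 0.924).

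Slfn4 and the other members are expressed in immune cells, so markers of these cells in the ovary are given beside the Schlafen values. Of 19 macrophage markers 17 had a log2 difference above zero, as had 8665 of all 22626 probe sets. By limma 1 of the 19 was called higher, where 1.24% of all probe sets were. It was Fcer1g, the gamma chain of Fc receptors, at 1.20 (limma adjusted p = 0.000309, and 0.0145 by the methods' test). Without FL1 pool 3, 3 were called, of which C1qb, a complement gene, was lower at -0.77 (limma adjusted p = 0.000448). Without DUKsi pool 4, 3 were called, all of them higher, and without both pools 4 were called, with C1qb again the 1 that was lower. In all pools C1qb had -0.61 (limma adjusted p = 0.0395) by the brightest of its 3 probe sets. The related genes C1qa and C1qc had 0.29 (limma adjusted p = 0.279) and 0.485 (limma adjusted p = 0.0463). C1qc was among the genes called higher without FL1 pool 3 and without both pools. The median of the list was 0.30. The macrophage gene Lyz2 had 0.09 (limma adjusted p = 0.751) and Csf1r had 0.35 (limma adjusted p = 0.0945). The summed signal of the macrophage markers was 11280 ± 1167 in FL1, from 10320 to 13400, and 9197 ± 1239 in DUKsi, from 8331 to 11570 (exact permutation p = 0.013, adjusted over 5 marker sums p = 0.065, n = 6). The ratio of these means was 1.23, and the ranges of the lines overlapped. The part of macrophage content in the Slfn4 difference was not tested.

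For the other immune cell lists the share of all probe sets called, 2.32%, is the background. Of 13 neutrophil markers measured among 15, 0 were called, and their sum averaged 1351 ± 288 over the FL1 pools and 2125 ± 1788 over the DUKsi pools (exact permutation p = 0.383, n = 6), with 5755 in DUKsi pool 4. Ltf had a log2 difference of -0.57 (limma adjusted p = 0.589) and Lcn2 of -0.99 (limma adjusted p = 0.497), which were -0.03 and -0.16 without FL1 pool 3 and DUKsi pool 4. Of 14 T cell markers measured among 16, 0 were called. Their sum was 1696 ± 227 and 1746 ± 229 (exact permutation p = 0.719, n = 6), and 7 of them were under 48.4 on average in both lines. Zap70 had a log2 difference of -0.15 (limma adjusted p = 0.621) and Thy1 of 0.08 (limma adjusted p = 0.777). Natural killer cell markers, 8 of 9 measured, summed to 936 ± 177 and 807 ± 89.1 (exact permutation p = 0.141, n = 6), a ratio of 1.16 that was 1.26 at p = 0.00649 after quantile normalisation, and 0 were called. Of these 8 markers 7 had a log2 difference above zero, as had 8665 of all 22626 probe sets. The largest was that of Nkg7, at 1.04 (limma adjusted p = 0.0295). Klrk1, an activating receptor gene, had a log2 difference of 0.30 (limma adjusted p = 0.452) and the perforin gene Prf1 of -0.28 (limma adjusted p = 0.466). B cell markers, 7 of 8 measured, summed to 1079 ± 226 and 1167 ± 139 (exact permutation p = 0.418, n = 6), and 0 were called, with -0.28 for the immunoglobulin gene Ighm (limma adjusted p = 0.277) and 0.04 for Cd22 (limma adjusted p = 0.926). Of the 11 probe sets of Ighm, 1 other than the brightest was called higher, at 2.11 (limma adjusted p = 0.000171). In whole ovaries fewer cells of a type and less RNA per cell cannot be told apart, and the part of immune cell content in the Slfn4 and Slfn3 differences was not tested.

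Some markers of the ovarian cells themselves also differed between the lines. Their lists were written with earlier results of these data known. Ptgfr, Cyp11a1, Cdh2, Inhbb and Nr5a2 are among the genes that the paper reports as different from the same arrays. The counts of called markers are therefore given as a description. Across the array 1.24% of all probe sets were called higher and 1.07% lower. Of 7 luteal markers measured among 9, 3 were called higher in FL1. These were Ptgfr, the prostaglandin F receptor, at a log2 difference of 1.83 (limma adjusted p = 0.00373), Hsd17b7 at 1.78 (limma adjusted p = 4.99e-05) and Cyp11a1, which cleaves cholesterol to pregnenolone, at 0.98 (limma adjusted p = 0.000376). Ptgfr was no longer called without FL1 pool 3 and DUKsi pool 4, at a limma adjusted p of 0.0131. Of 8 granulosa markers measured among 10, 1 was called lower, Cdh2 or N-cadherin, at -1.46 (limma adjusted p = 3.15e-08). These counts take the brightest probe set of a gene. By another of their probe sets Inhbb at -0.69 (limma adjusted p = 0.00114) and Nr5a2 at -0.64 (limma adjusted p = 0.000288) were also called lower, and the luteal gene Star higher at 1.61 (limma adjusted p = 0.00765). In its discussion the paper names Nr5a2 as raised in FL1, opposite to the value here, and Cyp11a1 first as raised and later as lowered. Of 4 theca markers measured among 5 and 10 oocyte markers, 0 were called, at medians of -0.34 and -0.25. The theca enzyme gene Cyp17a1 had a log2 difference of -0.62 (limma adjusted p = 0.0985) and Ptch1 of -0.19 (limma adjusted p = 0.191). The oocyte genes Gdf9 and Oosp1 had -0.12 (limma adjusted p = 0.524) and -0.48 (limma adjusted p = 0.0129). The part of this tissue makeup in the Schlafen differences was not tested.

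**Figure D4:**
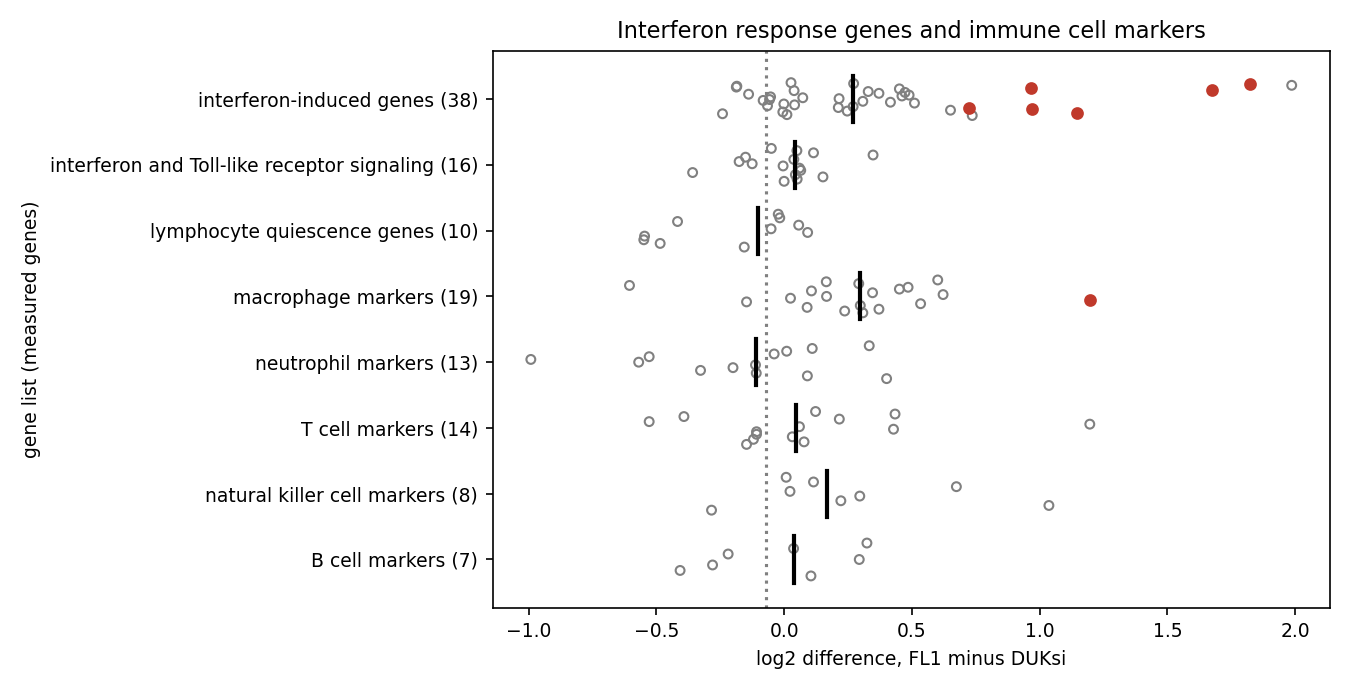
Log2 difference of FL1 minus DUKsi for the measured genes of the interferon, signaling, quiescence and immune cell lists (points, measured genes in brackets), with the median of all probe sets, -0.07, as a dotted line. The interferon-induced genes, with a median of 0.27, and the macrophage markers, with 0.30, lie mostly to the right of it.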

How the data were processed

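Affymetrix MOE 430A arrays were hybridised with biotin-labelled cRNA from pooled ovaries. The deposited values are signal intensity summaries that the authors computed per probe set with MAS5, on a linear scale. On each of the 24 arrays the mean, trimmed by 2% at each end, was 500.1. Signals ranged from 0.1 to 26218.1, and no detection calls were used here. As the depth of an array is not defined, precision was limited by the number of pools. Probe sets were named by the platform annotation, with 20380 of them assigned to 1 gene, 691 to several and 1555 to none, and 64 control probe sets were left out.

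The 2 arrays of a pool were averaged on the linear scale and log2 was taken. Lines were compared with limma 3.58.1 in R 4.3.3 (lmFit, eBayes with a trend), with Benjamini-Hochberg adjustment over 22626 probe sets, after the procedure had been tested on simulated data. Summed marker signals were compared with 2-sided exact permutation tests. A list gene with several probe sets was represented by the one of highest mean signal. Named were, per list, the called genes of largest change up to 4, or else the 2 of highest mean signal. Further genes were singled out after their values were seen (Psmb8, Gbp2, Foxo1, Lyz2, Csf1r, C1qa, C1qb, C1qc, Ngp, S100a8, Nkg7, Inhbb, Nr5a2, Star, Ccl5, Ccl8, Ccl11, Ccl12). The members and the gene lists were chosen with earlier results of these data known. Coordinates and promoter windows were taken from RefSeq tables of GRCm38.p6, in which the 4 genes were all matched by symbol.

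Alternatives were a t-test as in the methods, quantile normalisation, an equal median per pool, single arrays, all arrays with pool as random block, an added constant, a filter on dim probe sets, calls from any probe set of a gene, another adjusted p threshold, and the omission of pools.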

Additional observations from a re-analysis of the deposited data

Results flagged for a closer look

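In 10 of 88 groups of 6 pools looked at, 1 pool lay far from the other 5, judged by its gap to the nearest pool as a share of the whole range. Chance alone gives such a gap in about 1 in 20 groups. No Schlafen probe set was among them. The explanation of these values was not tested.

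In DUKsi, pool 4 accounted for 3 of them. Its Lcn2 signal was 2455 where the other pools had 50.4 to 82.3 (share of the range 0.987), and its Ltf signal was 1838 against 96.2 to 209 (0.935). The sum of the neutrophil markers, which includes Lcn2 and Ltf, was 5755 against 1062 to 1602 (0.885). Slfn4 had its lowest DUKsi signal in this pool, at 404.

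In FL1, pool 3 accounted for 4. The beta-actin 3' to 5' ratio was 2.45 against 1.32 to 1.74 (0.627), and the signals were 539 for Thy1 against 431 to 464 (0.692), 351 for Rad51d against 282 to 306 (0.656) and 204 for Rffl, a neighbour of the Schlafen genes, against 119 to 140 (0.757). Slfn4 had its highest FL1 signal in this pool, at 215.

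The remaining 3 were the Cxcl10 signal of FL1 pool 4, 449.5 against 151 to 208 (0.807), the Gdf9 signal of FL1 pool 1, 2657 against 1806 to 2097 (0.658), and the Nle1 signal of DUKsi pool 5, 274 against 132 to 182 (0.649).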

How the results depend on the processing

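Slfn4 and Slfn3 were lower in FL1, with no overlap of the lines, under each of the alternatives that recomputed the pool signals. With 1 pool left out, the log2 difference of FL1 and DUKsi ranged from -1.31 to -1.22 for Slfn4, -2.84 to -2.41 for Slfn3, -1.73 to -1.26 for the shared probe set, 0.01 to 0.10 for Slfn2 and 0.11 to 0.49 for Slfn1. An added constant of 48.4 gave -1.08 for Slfn4, -0.83 for Slfn3 and -0.53 for the shared probe set, which follows from its construction. The first array of each pool alone gave -2.05 for Slfn3, and the second gave -4.38 for Slfn3 and 0.98 for Slfn1.

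By limma 524 probe sets were called across the array, and 335 by the methods' t-test. Of the genes on the lists 11 were called, 6 by that t-test, 17 at an adjusted p below 0.05 and 15 when any probe set of a gene could be called, and the interferon-induced genes among them numbered 6 and, by the t-test, 2. Without 1 pool these counts were 431 to 614, 9 to 15 and 5 to 7. The macrophage markers called numbered 1, and 0 by the t-test, 3 with pool as a random block and 3 at an adjusted p below 0.05. Of the neighbours 0 were called, but 1 with all arrays and the pool as a random block, 1 at an adjusted p below 0.05 and 0 to 1 without a pool. The median of all probe sets was -0.07, -0.02 after quantile normalisation and 0.02 with an equal median per pool. The natural killer marker sum, a ratio of 1.16, became 1.26 and 1.23 (exact permutation p = 0.0281) under these scalings. Spearman's rho in place of Pearson's r was 0.846 for Atf7ip, 0.902 for Ptgdr, 0.951 for Rnf141 and 0.895 for Smc4. The causes were not tested.

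Pools of the same number in the lines did not deviate together, at correlations of -0.264 to 0.167, so that the numbers do not pair the pools. With the replicate block 461 probe sets and 8 interferon-induced genes were called, and the log2 difference of Slfn4 was -1.27.

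Signals of Slfn1, Slfn3 and the shared probe set lay mostly under 48.4, where the 2 arrays of a pool differed by up to 34.2-fold. The sizes of their differences are therefore uncertain, and Slfn4 and Slfn2 were the members measured well above that level.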
